A study of Mus musculus with 8 samples.

Results

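The aryl hydrocarbon receptor (AhR) and its best known targets were followed as 7 genes in the liver of ICR mice, an outbred strain. They were taken by gene symbol from the deposited table of 24547 genes, and all 7 were found: Ahr, Arnt, Ahrr, Tiparp, Cyp1a1, Cyp1a2 and Cyp1b1. Per the labels, 4 libraries came from mice given Psoraleae Fructus decoction at high dose into the stomach for 30 days (treated), and 4 from controls (control), for which the protocol names saline. The series is concerned with liver damage by this preparation, and the labels give no sex, age, dose by mass or hour of collection. Nor do they tie libraries to animals, so the p-values below reflect only library-to-library spread, which may be technical.

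AhR is a transcription factor of the bHLH-PAS family that waits in the cytosol in a complex with HSP90 and p23 and enters the nucleus when it binds a planar aromatic ligand. There it pairs with ARNT on DNA elements with the core GCGTG and switches on the CYP1 family of cytochromes P450, which oxidise many aromatic compounds, and its own brakes AHRR and TIPARP. In the liver CYP1A2 is made constitutively in the hepatocytes around the central vein, while CYP1A1 is almost silent until a ligand arrives, which makes Cyp1a1 RNA the usual readout of receptor activation. Psoraleae Fructus is the dried fruit of the legume Psoralea corylifolia, known for furanocoumarins such as psoralen.

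The promoters of Cyp1a1 and Ahrr are shown for the element that the receptor binds, and that of Cyp1a2 because its window lacks the core. Capitals mark the core GCGTG, searched on both strands, and each sequence is the gene strand 5′ to 3′ (build GRCm38.p6). Those of Cyp1a1 and Ahrr run up to the RefSeq start of transcription. The Cyp1a1 stretch is chr9:57697363-57697612 (plus strand), and that of Ahrr is chr13:74292332-74292581 (minus strand). That of Cyp1a2 is chr9:57683704-57683905 (minus strand). It stops short of the RefSeq start, since bases 57683656 to 57683703, annotated as exon in GENCODE M21, were left out.
Cyp1a1: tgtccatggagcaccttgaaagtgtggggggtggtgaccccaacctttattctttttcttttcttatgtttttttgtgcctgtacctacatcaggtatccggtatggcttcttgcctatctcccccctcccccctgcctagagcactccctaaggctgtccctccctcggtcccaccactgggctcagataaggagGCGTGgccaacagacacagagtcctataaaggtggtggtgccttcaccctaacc
Ahrr: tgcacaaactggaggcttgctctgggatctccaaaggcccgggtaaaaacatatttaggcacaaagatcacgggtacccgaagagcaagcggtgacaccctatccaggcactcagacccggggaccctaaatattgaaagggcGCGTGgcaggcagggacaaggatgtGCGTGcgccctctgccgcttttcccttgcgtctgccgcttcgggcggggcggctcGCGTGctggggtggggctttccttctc
Cyp1a2: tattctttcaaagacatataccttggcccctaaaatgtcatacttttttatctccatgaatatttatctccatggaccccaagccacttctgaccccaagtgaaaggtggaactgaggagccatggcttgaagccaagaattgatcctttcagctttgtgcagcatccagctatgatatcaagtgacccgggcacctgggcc

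Of the 7 genes, 6 had a promoter window in the RefSeq table (250 bases before the start and 50 after it), all but Ahr. GCGTG on either strand was in 5 of these 6 windows, against 32.4% of 32817 different promoter windows of the same length. Those windows leave out 1 chromosome, which holds none of the 7 genes, and were not matched for GC content. Ahrr held 3 copies, beginning 107, 82 and 27 bases before the start, and Cyp1a1 held 1, beginning 54 bases before it. Arnt, Tiparp and Cyp1b1 also held 1 copy each, and the Cyp1a2 window held none. The longer form TNGCGTG, which contains the core, was in the Ahrr window and in 5.06% of the 32817 windows. A match describes these letters and is no measurement of binding, and none was measured.

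Of the 6 genes tested, the receptor Ahr was higher and its partner Arnt was lower in treated libraries, each by a modest amount and just inside the threshold (adjusted p under 0.05 over 12861 genes, edgeR's quasi-likelihood test with Benjamini-Hochberg adjustment). The 3 CYP1 genes and Tiparp did not pass, and Ahrr had too few reads to be tested. Of all genes tested, 9.21% were called, 5.46% higher and 3.75% lower, so calls were common in this comparison. At an unadjusted p under 0.05, a count given for lists below, 3777 of the 12861 genes passed in edgeR. Treated and control values did not overlap in 3 of the 6 genes tested, against 18.9% of all genes tested. In 1 of them, Ahr, all treated values were above all control values (10.2% of all genes tested), and in 2, Arnt and Tiparp, they were all below (8.7%). Levels are given below as CPM (counts scaled to library size with TMM factors, for 1 gene across libraries) or as the deposited FPKM (per length, for comparisons between genes).

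**Figure D1:**
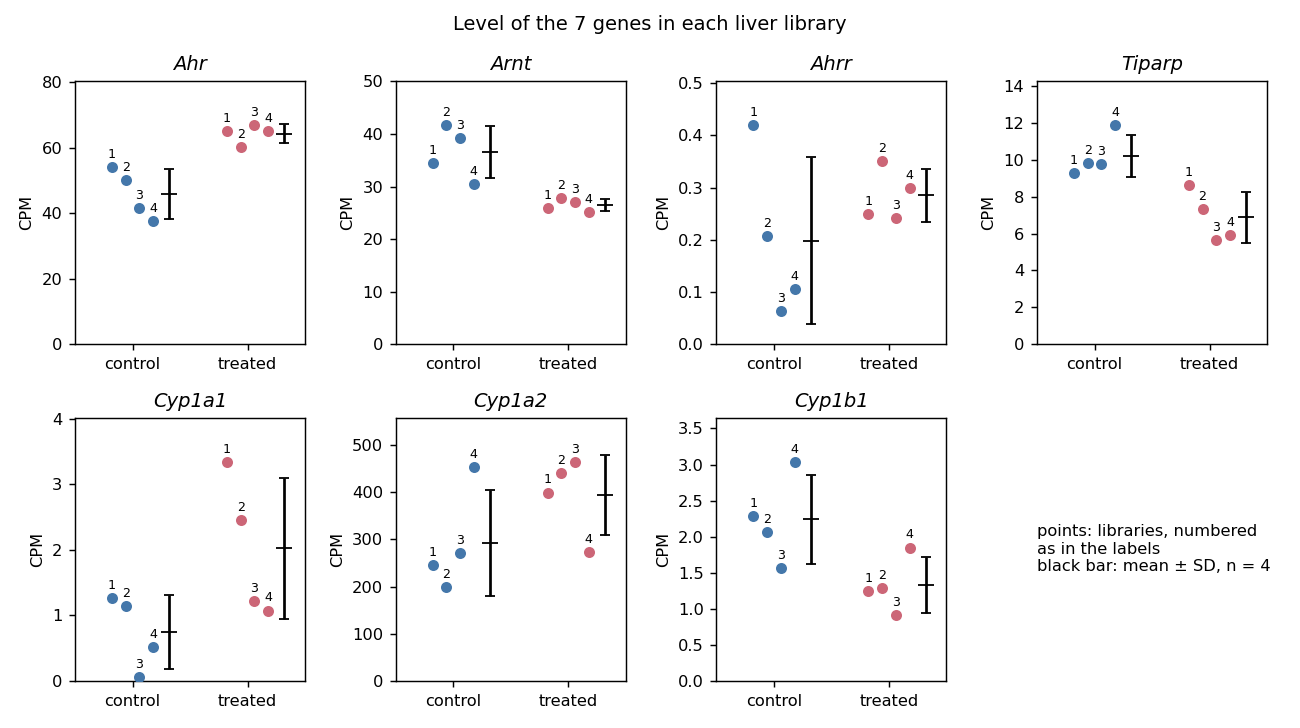
Level of each of the 7 genes in CPM (vertical axes, each from 0) in the 4 control and 4 treated libraries. Points are libraries with their label numbers, and black bars are the mean ± SD (n = 4). All treated points lie above the control points for Ahr and below them for Arnt and Tiparp, while the groups overlap for Ahrr and the 3 CYP1 genes.

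Depth and tissue bear on all values. Library totals ran from 15864399 to 20159132 counts. The hepatocyte product Alb stood at 116310 ± 21754 CPM in control and 117480 ± 8524 CPM in treated libraries (SD, n = 4), as the liver label implies. Treated libraries resembled each other more closely (correlation of log2 CPM from 0.968 to 0.979) than controls did (0.925 to 0.962). Fold changes over all tested genes ran with gene length (rank correlation -0.241 across genes) and GC content (0.309).

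Ahr encodes the receptor itself (chromosome 12, 35497974 to 35535038, minus strand, GRCm38, as are all positions below). Its level was 54.3, 50.3, 41.6 and 37.6 CPM in control libraries 1 to 4, and 65.2, 60.2, 67.0 and 65.0 CPM in treated libraries 1 to 4. Every treated library lay above every control, and the treated libraries varied less (SD 2.90 against 7.66 CPM). The means were 45.9 ± 7.66 and 64.4 ± 2.90 CPM (SD, n = 4 per group), a log2 fold change of 0.49 (SE 0.13, 95% interval 0.20 to 0.78, edgeR adjusted p = 0.0464), or 1.40-fold. The rise kept its direction in all 23 alternative fits (log2 0.40 to 0.65) but passed the threshold in 9 of them. It was lost when control 2, control 3 or any 1 of the 4 treated libraries was left out, held without control 1 or control 4, and had adjusted p-values from 0.0298 to 0.125 over these 8 fits. A lincRNA gene on the opposite strand, Gm48236, shares exon bases with Ahr, and it had 0 or 1 read in every library.

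Arnt encodes the obligate partner of AhR, which also pairs with the hypoxia factors (chromosome 3, 95434388 to 95497240, plus strand). Control libraries 1 to 4 held 34.6, 41.7, 39.3 and 30.5 CPM, and treated libraries 1 to 4 held 25.9, 27.8, 27.1 and 25.2 CPM. All treated values were below all control values, with control 4 the nearest. The mean fell from 36.5 ± 5.0 to 26.5 ± 1.19 CPM (SD, n = 4 per group), a log2 fold change of -0.46 (SE 0.12, 95% interval -0.73 to -0.20, edgeR adjusted p = 0.0420). Direction was kept in all 23 alternative fits (log2 -0.54 to -0.32), and the threshold was passed in 8. With 1 library left out the call held only without control 4 (log2 -0.54, adjusted p = 0.0127), and was lost without each of the other 7 (adjusted p up to 0.111). An offset for gene length and GC content took the Arnt change to -0.33 (adjusted p = 0.105) and the Ahr change to 0.64 (adjusted p = 0.0324).

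With one partner higher and the other lower, the FPKM of Arnt per FPKM of Ahr, a ratio within a library that no scaling factor touches, ran from 0.490 to 0.727 in control libraries and from 0.298 to 0.356 in treated libraries. Ahr was above Arnt per length in every library. The ratio combines genes already tested and is given without a test of its own.

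**Figure D2:**
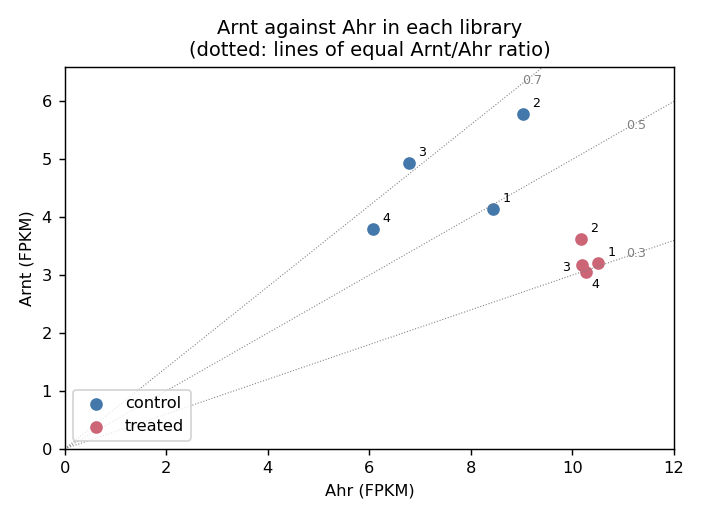
Arnt against Ahr in deposited FPKM, 1 point per library with its label number; dotted lines join points of equal Arnt to Ahr ratio (0.3, 0.5 and 0.7). The 4 treated libraries cluster near the line of 0.3 at an Ahr level above 10 FPKM, and the controls lie at ratios from 0.490 to 0.727.

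The AhR complex in the cytosol is held by chaperones. The list for it held Hsp90aa1, Hsp90ab1, Ptges3 and Src, the last a kinase and no chaperone. None of these 4 genes was called by edgeR (0 higher and 2 lower at an unadjusted p under 0.05). Hsp90aa1, the inducible HSP90, stood at 767 ± 349 CPM in control and 377 ± 37.5 CPM in treated libraries (SD, n = 4; log2 -1.03, SE 0.29, adjusted p = 0.0565), and DESeq2 and limma-voom each called this gene and no other of the list. Control 2 was highest for Hsp90aa1, at 1215 CPM, and control 4, at 407 CPM, lay within the treated range of 342 to 416. Hsp90ab1, the constitutive HSP90, stood at 1352 ± 351 and 1032 ± 80.1 CPM (adjusted p = 0.221). The 4 log2 fold changes ran from -1.03 (Hsp90aa1) to 0.12 (Src), with a median of -0.36 against -0.04 over all tested genes.

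Ahrr, the repressor that competes with AhR for ARNT (chromosome 13, 74211118 to 74292331, minus strand), was near the limit of detection. It had 7, 4, 1 and 2 reads in control libraries 1 to 4 and 5, 6, 4 and 5 reads in treated libraries 1 to 4. The sums of 14 reads (95% exact Poisson interval 7.65 to 23.5) and 20 reads (12.2 to 30.9) overlap in their intervals, which cover counting error only. The gene failed the filter on low counts, and in the fit without that filter its log2 fold change was 0.54 (SE 0.81, edgeR adjusted p = 0.721). No difference was thus detected at this depth, and the 95% interval of that fit was wide (log2 -1.14 to 2.22).

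Tiparp encodes a mono-ADP-ribosyltransferase that is induced by AhR and marks it for degradation (chromosome 3, 65528410 to 65555518, plus strand). Control libraries 1 to 4 held 9.30, 9.81, 9.80 and 11.9 CPM and treated libraries 1 to 4 held 8.64, 7.32, 5.64 and 5.91 CPM. The groups did not overlap, with treated 1 closest to the controls. The log2 fold change of -0.57 (SE 0.18, 95% interval -0.97 to -0.17) missed the threshold in edgeR (adjusted p = 0.0743). It was inside it with DESeq2 (-0.56, adjusted p = 0.0444) and limma-voom (-0.58, adjusted p = 0.0483), and the offset for gene length and GC content took it to -0.32. The pseudogene 4931440P22Rik on the opposite strand shares exon bases with Tiparp, and had 2 to 11 reads per library against 93 to 227 for Tiparp.

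Cyp1a1 (chromosome 9, 57687928 to 57703824, plus strand), the inducible CYP1 enzyme of polycyclic aromatic hydrocarbon oxidation, was barely expressed in both groups. This span is the GENCODE M21 gene, and the promoter stretch above, placed by the RefSeq start, lies inside it. Control libraries 1 to 4 held 21, 22, 1 and 10 reads, and treated libraries 1 to 4 held 67, 42, 20 and 18 reads. In CPM these were 1.26, 1.14, 0.0628 and 0.524 against 3.35, 2.46, 1.21 and 1.07, so treated 1 and 2 stood above all controls and treated 3 and 4 within their range. The mean was 0.746 ± 0.558 CPM in control and 2.02 ± 1.08 CPM in treated libraries (SD, n = 4), and all 4 treated libraries were above the control mean. The log2 fold change of 1.43 (SE 0.65, 95% interval -0.02 to 2.88) was not called (edgeR adjusted p = 0.176), nor was it in any of 21 alternative fits. Its interval reaches from no change to 7.36-fold.

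Cyp1a2 (chromosome 9, 57676937 to 57683703, minus strand) is the constitutive liver CYP1 enzyme, which oxidises caffeine and aromatic amines. Its values were 245, 199, 271 and 453 CPM in control libraries 1 to 4 and 399, 440, 465 and 273 CPM in treated libraries 1 to 4. Control 4 stood within the treated range, and treated 4 was nearly as low as control 3. Means of 292 ± 112 and 394 ± 85.3 CPM (SD, n = 4) gave a log2 fold change of 0.43 (SE 0.26, 95% interval -0.16 to 1.02, edgeR adjusted p = 0.304). Without control 4 it was 0.73 and was called (adjusted p = 0.0383), the only one of 23 alternative fits in which it passed.

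Cyp1a1 and Cyp1a2 lie side by side on opposite strands, and as paralogs they could share reads. Of the reads of the pair, Cyp1a1 took from 0.0232% in control 3 (1 read beside 4311 of Cyp1a2, 95% exact binomial interval 0.000587% to 0.129%) to 0.831% in treated 1 (0.645% to 1.05%). These intervals cover counting error only, not the spread between libraries. Control 1, with a similar 4086 reads of Cyp1a2, held 21 of Cyp1a1. Whether the pair shares reads was not tested.

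Cyp1b1 (chromosome 17, 79701537 to 79715061, minus strand) encodes the CYP1 enzyme found mainly outside hepatocytes, as in stellate cells. It measured 2.28, 2.07, 1.57 and 3.04 CPM in control libraries 1 to 4, and 1.25, 1.29, 0.910 and 1.85 CPM in treated libraries 1 to 4. Treated libraries 1 to 3 stood below every control, and treated 4 lay within the control range. The log2 fold change was -0.76 (SE 0.32, 95% interval -1.48 to -0.04, edgeR adjusted p = 0.152), not called in any of 21 alternative fits. The summed level of 11 stellate cell and fibroblast markers was 365 to 483 CPM in control and 277 to 389 CPM in treated libraries, with 1 of the 11 called lower and none at 0 throughout. The called marker, Pdgfra (log2 -1.14, SE 0.16, edgeR adjusted p = 0.00667), was called in all 8 fits with 1 library left out. It was also called with the offset for gene length and GC content (adjusted p = 0.0132). DESeq2 called Pdgfrb and Pdgfra lower, and limma-voom these and Dcn, with none higher. At an unadjusted p under 0.05 in edgeR 3 were lower and 0 higher. Most of the summed level was Dcn, at 255 ± 24.9 and 193 ± 32.9 CPM (SD, n = 4; edgeR adjusted p = 0.112). The 11 log2 fold changes ran from -1.14 (Pdgfra) to 0.53 (Hand2), with a median of -0.30 and Lrat at 0.003. The part of these markers in the Cyp1b1 values was not tested. In whole tissue, fewer cells of a type and less RNA per cell cannot be told apart.

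**Figure D3:**
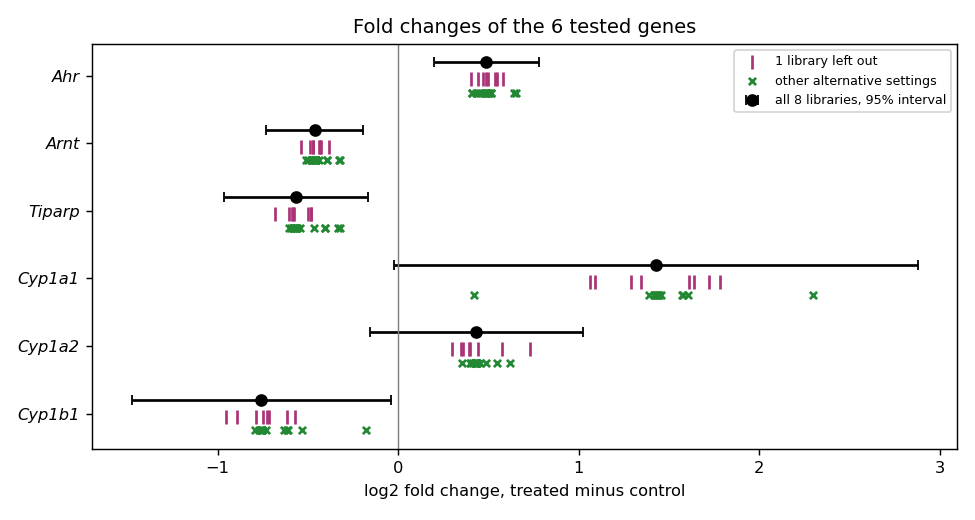
Log2 fold changes (treated minus control, horizontal axis) of the 6 tested genes: black points with 95% intervals from edgeR on all 8 libraries, purple bars with 1 library left out, and green crosses under the other alternative settings. No alternative moved a gene across 0. The Cyp1a1 interval, from -0.02 to 2.88, is the widest of the 6.

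Per length the genes spanned a wide range of levels. Mean deposited FPKM over the 8 libraries was 170 for Cyp1a2, above 98.7% of 22927 detected genes, 8.93 for Ahr, 3.96 for Arnt, 1.97 for Tiparp, 0.499 for Cyp1a1, 0.306 for Cyp1b1 and 0.0256 for Ahrr. In control libraries Cyp1b1 (0.389 ± 0.102 FPKM) and Cyp1a1 (0.274 ± 0.206 FPKM) did not differ beyond their spread. Among treated libraries Cyp1a1 ran from 0.375 to 1.19 FPKM and lay above Cyp1b1, which ran from 0.146 to 0.308 FPKM. Cyp1a1 in control 3 (0.0226 FPKM) also lay within the control range of Ahrr (0.00668 to 0.0427 FPKM). The other neighbours did not overlap in either group, and were closest among treated libraries, where the lowest Tiparp value was 1.21 FPKM and the highest Cyp1a1 value 1.19 FPKM.

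Cyp1a2 is a gene of pericentral hepatocytes, so their other markers are set beside it, with a clock gene. The summed level of 10 markers of pericentral hepatocytes was 7353 to 14273 CPM in control and 12790 to 14866 CPM in treated libraries, with 1 of 9 tested called higher and none at 0 throughout. That gene, Rnf43, was called in 1 of 8 fits with 1 library left out and was lost with the offset for gene length and GC content (adjusted p = 0.0792). Most of that sum is Cyp2e1, at 12002, 5672, 7017 and 6182 CPM in control libraries 1 to 4 and 10383 to 11920 CPM in treated libraries. Control 1 was thus as high as treated libraries for Cyp2e1 but not for Cyp1a2, and control 4 was high for Cyp1a2 but not for Cyp2e1. The clock output gene Dbp, named here with its values in view, measured 2.04, 0.155, 0.628 and 35.6 CPM in control libraries 1 to 4 and 50.6, 79.3, 71.4 and 37.9 CPM in treated libraries 1 to 4. Dbp was not called (log2 2.63, SE 1.35, edgeR adjusted p = 0.246). Control 4 was the highest control and treated 4 the lowest treated library in both Dbp and Cyp1a2. Of 2 more clock genes named with their values in view, Tef had this order too. Per1 did not, at 50.5 CPM in control 1 and 6.50 CPM in control 4. The part of the lobule and of the clock in the Cyp1a2 values was not tested.

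**Figure D4:**
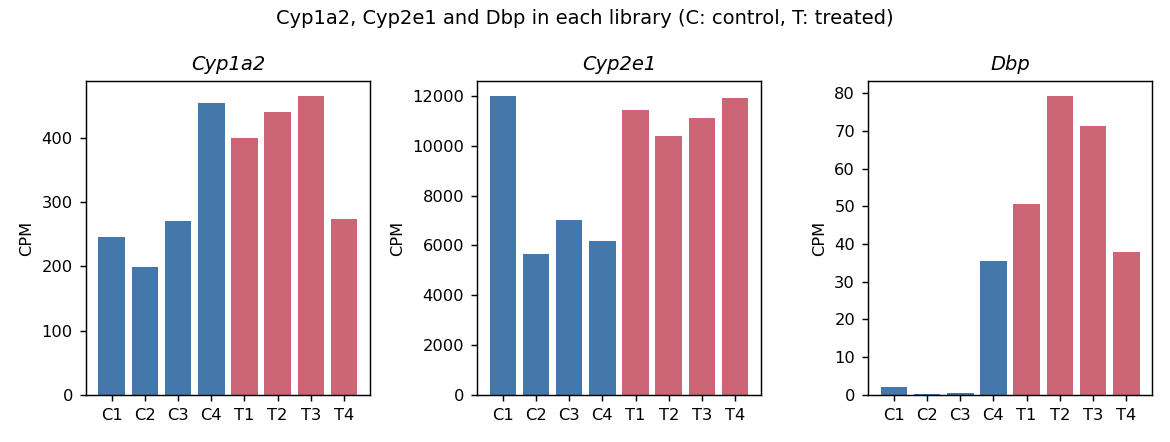
Bars show CPM (vertical axes from 0) of Cyp1a2, the pericentral gene Cyp2e1 and the clock output gene Dbp in control libraries C1 to C4 and treated libraries T1 to T4. Control 4 stands out from the other controls in Cyp1a2 (453 CPM) and Dbp (35.6 CPM), while control 1 does so in Cyp2e1 (12002 CPM).

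Other targets of AhR showed no common direction. Of 17 listed genes 14 could be tested, and 1 was lower and none higher by edgeR (2 higher and 2 lower at an unadjusted p under 0.05), with a median log2 fold change of -0.13 against -0.04 over all tested genes. Socs2, a suppressor of cytokine signalling that is also a target of growth hormone, fell from 45.7 ± 4.52 to 17.0 ± 9.26 CPM (SD, n = 4; log2 -1.43, SE 0.31, edgeR adjusted p = 0.0265). Its treated libraries held 12, 30.9, 12.9 and 12.3 CPM, so treated 2 was nearest the controls. The call was lost without control 2 or 3 or treated 1, 3 or 4 (log2 -1.39 to -1.28, adjusted p up to 0.0885). DESeq2 called 3 higher (Pmm1, Selenbp1 and Gsta1) and 2 lower (Socs2 and Xdh), and limma-voom called 1 higher and 2 lower. Nqo1, a quinone reductase and classical target, also named with its values in view, measured 10.8 ± 3.71 and 8.20 ± 1.6 CPM (adjusted p = 0.320). Gsta1, a glutathione transferase that failed the filter, was at most 0.210 CPM in control libraries and 0.418 to 1.40 CPM in treated libraries.

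The bHLH-PAS family to which AhR and ARNT belong also holds the clock activators and the hypoxia factors. Of 11 listed relatives and coactivators 8 could be tested, and 2 fell and none rose (none higher and 5 lower at an unadjusted p under 0.05; DESeq2 and limma-voom called none higher). Those 2 were the clock activators Npas2 (log2 -3.87, SE 0.62) and Arntl (log2 -2.38, SE 0.37), each with an edgeR adjusted p of 0.00993. Arntl was at 25.2, 31.3, 23.8 and 10.7 CPM in control libraries 1 to 4 and at 3.45, 3.46, 3.46 and 7.16 CPM in treated libraries 1 to 4. Both calls held with each library left out, though Arntl missed with a replicate block (adjusted p = 0.0523, and 0.0686 with the offset for gene length and GC content added). Npas2 missed with limma on log2(FPKM + 1), where its log2 fold change was -0.96 (adjusted p = 0.0565, and 0.120 without a filter on low values). Of 16 further clock genes Per2 rose (log2 1.16, SE 0.23, adjusted p = 0.0185) and Cry1 fell (log2 -1.12, SE 0.29, adjusted p = 0.0437), and with single libraries left out Cry1 passed only without control 4 (adjusted p = 0.00451, up to 0.129 otherwise). Cry1 was also lost with the offset (adjusted p = 0.0574). Per2 was lost without treated 2 or 3 (adjusted p = 0.0520 and 0.0584). Of these 16 clock genes, DESeq2 called 3 higher and 1 lower, and limma-voom 8 higher and 1 lower.

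Enzymes that make tryptophan-derived ligands of AhR and partners of the P450 enzymes held no call by edgeR. Of 12 genes from tryptophan to kynurenine and beyond 10 could be tested (1 higher and 2 lower at an unadjusted p under 0.05), and DESeq2 called none and limma-voom 1, Kynu, lower. Tdo2, the liver enzyme that opens the tryptophan ring, stood at 1885 ± 853 and 1406 ± 315 CPM (SD, n = 4; adjusted p = 0.371), and Haao at 282 ± 151 and 319 ± 43.0 CPM. None of 7 genes of microsomal electron transfer and haem supply was called by edgeR, DESeq2 or limma-voom (1 higher and none lower at an unadjusted p under 0.05 in edgeR). Their median log2 fold change was 0.31. Pgrmc1, a haem-binding P450 partner, stood at 1105 ± 212 and 1367 ± 138 CPM, and Cyb5a, cytochrome b5, at 936 ± 16.8 and 1090 ± 175 CPM.

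**Figure D5:**
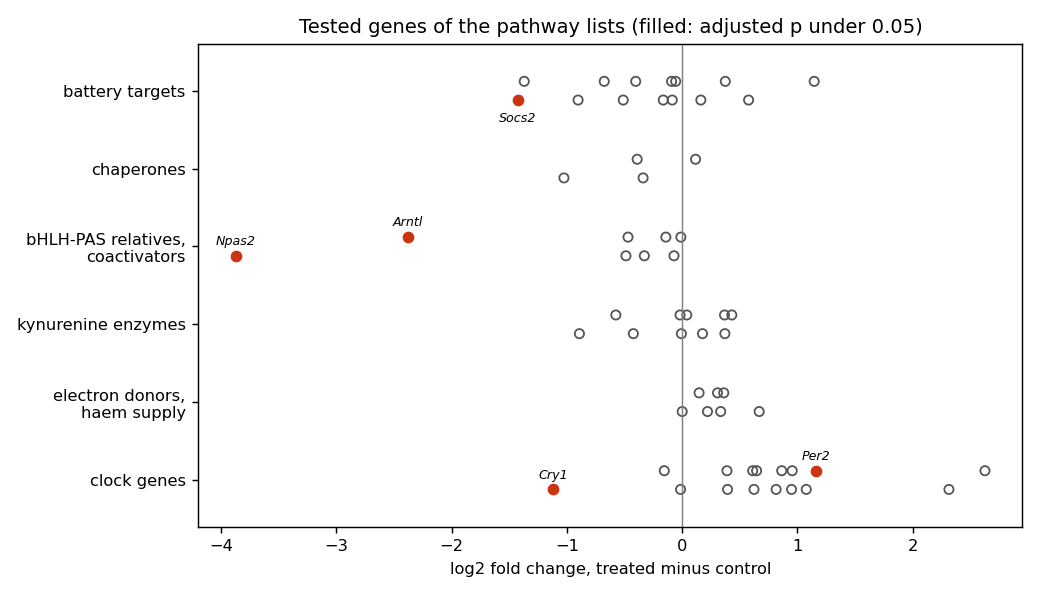
Log2 fold changes (treated minus control, horizontal axis) of every tested gene in the 6 pathway lists, 1 circle per gene, with filled and named circles for genes at an edgeR adjusted p under 0.05. The 5 named genes are Socs2, Npas2, Arntl, Cry1 and Per2, and the lists of chaperones, kynurenine enzymes and electron donors hold none.

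Genes with a pattern across the 8 libraries most like each of the 6 tested genes were found by Pearson correlation of log2 CPM, a description over libraries that share the treatment difference. Ahr was closest to Map1lc3a, an autophagy gene that rose (r = 0.985; log2 1.18, SE 0.25, edgeR adjusted p = 0.0254), and to Trp53rka (r = 0.981). Arnt was closest to Npas2 (r = 0.991) and to Nceh1, a cholesteryl ester hydrolase that fell (r = 0.985; log2 -0.69, adjusted p = 0.0371). The call of Map1lc3a was lost without control 3 or treated 1, 3 or 4 (adjusted p up to 0.0826), and that of Nceh1 without control 2 or 3 or any 1 treated library (adjusted p up to 0.0978). Cyp1a2 was closest to Serpina6, corticosteroid-binding globulin (r = 0.984), and Fign (r = 0.973), and Cyp1a1 to Mthfd1l (r = 0.966) and Actl6a (r = 0.958). Cyp1b1 was closest to Tmco6 (r = 0.986) and Arl13b (r = 0.980), and Tiparp to Tubgcp5 (r = 0.976) and Rb1 (r = 0.969). Among the 6 genes themselves the correlation over the 8 libraries ran from -0.846 for Ahr with Tiparp to 0.741 for Ahr with Cyp1a1.

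Some markers of macrophages, endothelium and T and NK cells, and Pdgfra of the stellate cell list, were lower in treated libraries. Most markers of other cell types were not called by edgeR. The summed level of 8 Kupffer cell and macrophage markers was 468 to 1146 CPM in control and 299 to 604 CPM in treated libraries, with 2 of 8 called lower. For 8 markers of sinusoidal endothelium it was 396 to 515 and 269 to 406 CPM, with 2 of 8 called lower, and for 7 T and NK cell markers it was 6.76 to 24.8 and 4.45 to 5.21 CPM, with 2 of 4 tested called lower. DESeq2 and limma-voom each called 5 of the 8 Kupffer cell markers and the same number of endothelial markers as edgeR, and of the T and NK cell markers DESeq2 called 5 of 7 and limma-voom 2 of 4, all lower. At an unadjusted p under 0.05 in edgeR, 6 of 8 Kupffer cell, 2 of 8 endothelial and 3 of 4 T and NK cell markers were lower. In each of these lists 0 were higher. The edgeR calls of Adgre1, Timd4 (both Kupffer cell) and Tek (endothelial) each held in 1 of 8 fits with 1 library left out. They were lost with the offset for gene length and GC content (adjusted p = 0.0677, 0.0731 and 0.0956). With that offset 1 Kupffer cell marker was called, Csf1r, which was lower. The calls of Pecam1 (endothelial), Cd3g and Nkg7 (T and NK cell) held in 3, 2 and 3 of these 8 fits, and Cd3g was lost with the offset (adjusted p = 0.0658). None of 8 hepatocyte markers was called by edgeR (1 higher and 1 lower at an unadjusted p under 0.05; DESeq2 and limma-voom each called Asgr1 higher and Serpina1a lower). Periportal hepatocyte markers summed to 5489 to 12738 CPM in control and 6691 to 8274 CPM in treated libraries, and none of 8 was called by edgeR, DESeq2 or limma-voom (0 at an unadjusted p under 0.05 in edgeR). B cell and cholangiocyte markers stayed under 10 CPM in sum, and none of the 3 and 2 tested was called by any of these tools (1 and 0 at an unadjusted p under 0.05 in edgeR). None of the markers of these lists was at 0 in all libraries, and their part in the values of Ahr, Arnt and Tiparp was not tested.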

How the data were processed

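Liver poly-A RNA of 8 libraries was sequenced, with a kit, per the labels' protocols NEBNext Ultra RNA, that does not mark strand. The deposited table holds raw counts per gene and FPKM values. The submitters' processing notes name HISAT2, HTSeq 0.13.5, DESeq2 1.32.0 and GRCm38, with no role given. The annotation release, strand setting and handling of reads shared by paralogs are not given in the sources at hand. The deposited FPKM equals count over library total and 1 gene length, which for all 7 genes is the exon union of GENCODE M21.

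Counts were tested in R 4.3.3 with edgeR 4.0.16 (filterByExpr with minimum count 10, TMM, robust quasi-likelihood F test, group only), over all 12861 genes that passed, with Benjamini-Hochberg adjustment. Standard errors come from the F statistic. Fits were tested on simulated data. There edgeR called 6.25% of 1.5-fold, 29.2% of 2-fold and 87.5% of 4-fold changes, so modest changes were often missed. Alternatives used DESeq2 1.42.0, limma 3.58.1, other scalings and filters, a replicate block, a spline offset for gene length and GC content, and left-out libraries; leaving out controls 2 and 4 was chosen after seeing the data. The genes, lists and markers were chosen with earlier results of these data known. One listed gene is not reported here, and its list's values leave it out. Named are the 7 genes, per pathway list up to 4 called genes of smallest adjusted p or else the 2 most abundant, and per tested gene the 2 of most similar pattern; others are said to be chosen later or describe what a list or a tool called. Identical libraries were not found (chi-square per degree of freedom at least 29.7).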

Additional observations from a re-analysis of the deposited data

How the results depend on the processing

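None of the 6 tested genes changed direction under any alternative run for it. Genes called (1184; 702 higher, 482 lower) became 2153 (1137, 1016) with DESeq2, 2127 (1195, 932) with limma-voom, 480 (372, 108) with limma on unfiltered log2(FPKM + 1), 590 (404, 186) with the length and GC offset, and 486 (334, 152) with that offset and the replicate block. Lower calls were 260 and 286 with limma on filtered log2(FPKM + 1) and log2(FPKM + 0.1). Without single libraries the counts ran from 183 to 2330 (higher 147 to 1224, lower 36 to 1106), lowest without treated 3 and highest without control 4. The cause was not tested. The share of calls that were higher was 59.3%, and 68.5% with the length and GC offset.

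Against 2 of the 6 genes called, 0 to 3 were called with 1 library left out, the 3 without control 4 being Ahr, Arnt and Cyp1a2. There were 0 with library size alone, any limma fit on FPKM, and the replicate block with or without the offset, and 1 with no low-count filter, non-robust dispersion, the offset, or without controls 2 and 4. The Ahr call was lost with library size alone (log2 0.44), non-robust dispersion (0.49), limma on FPKM (0.41, 0.45 and 0.41), the replicate block (0.50; 0.65 with the offset) and without controls 2 and 4 (0.43); left-out libraries gave 0.40 to 0.58. The Arnt call was lost with library size alone (-0.51), no filter (-0.44), limma on FPKM (-0.40, -0.49 and -0.40), the replicate block (-0.45; -0.32 with the offset) and the offset (-0.33); left-out libraries gave -0.54 to -0.38. Tiparp was called with DESeq2 (-0.56) and limma-voom (-0.58). Cyp1a2 ran from 0.30 to 0.73 with 1 library left out and was called without control 4. Haao (0.18) ran from -0.013 without control 2 to 0.59 without control 4.

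The labels do not say whether replicate numbers pair the libraries. Same-numbered deviations correlated at -0.0124 to 0.177, and 3 of 8 libraries correlated best with their own number. Such weak values do not decide whether the numbers mark pairs. The replicate block gave 944 calls. Cyp1a1 and Cyp1b1 fell below the FPKM filter or were compressed by the pseudocount (0.42 and -0.18 with limma on unfiltered log2(FPKM + 1)). Few reads limit Ahrr, Cyp1a1 and Cyp1b1.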
